A study of Danio rerio with 28 samples.

Results

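The genes described here are the embryonic and adult globins and 2 other erythroid genes, as measured in RNA from adult zebrafish hearts. They were chosen by name. The embryonic α-globins hbae1.2 (ENSDARG00000088330) and hbae1.3 (ENSDARG00000089124) and one of the 7 identifiers that carry the symbol HBE1 (ENSDARG00000113599) were taken by identifier, and hbaa1, hbba1, hbba2, alas2 and hemgn by symbol. The symbols hbba1 and hbba2 matched no identifier of the name table, so 6 of the 8 named genes were found among 32520 identifiers, of which 29201 had a symbol. Both adult β-globin genes may still be measured under another symbol. All 6 passed the filter on low counts in the time course and 4 passed it in the whole hearts, where hbae1.2 and HBE1 ENSDARG00000113599 did not. In the time course HBE1 ENSDARG00000113599 had its highest counts at 3 dpi, so its passing depended on the groups in which it was high.

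Red blood cells of zebrafish keep their nucleus, so their RNA is present in any tissue that holds blood. A hemoglobin molecule is built from α-type and β-type globin chains around heme. The embryo and larva use one set of globin genes and the adult another, and in frogs thyroid hormone drives the change from the larval to the adult set at metamorphosis. alas2 encodes the first enzyme of heme synthesis in red cells, and hemgn (hemogen) a nuclear protein of developing red cells. In the order of genes in RefSeq's GRCz12tu assembly, hbaa2, hbba2, hbaa1 and hbba1 were followed by hbae1.1, hbae1.2, hbae1.3 and hbae3 along one stretch of chromosome.

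The time course compared thraa+/- fish with WT fish, in uninjured apex tissue and in the injured zone at 8 h (hpi) and at 1, 3, 7 and 15 days (dpi) after about 20% of the ventricular apex was resected. A second experiment compared uninjured thraa-/- and WT hearts, called entire hearts in the titles and ventricles in the protocol. The mutant allele is an 8-bp insertion that truncates the ligand-binding domain of Thraa, a thyroid hormone receptor. The sample labels call the mutants of the time course only knockouts, and the series' design gives them as thraa+/-. All fish were 4 to 6 months old. Each of the 14 groups had 2 libraries, labelled biological replicates, and each library pooled tissue of at least 5 fish, so the spread between libraries is that between pools.

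Each time-course library had 13692204 to 18775025 counts on genes, and each whole-heart library 13656671 to 16532401. The transcript of thraa (ENSDARG00000000151) had 32 to 105 counts in thraa+/- libraries and 45 to 82 in WT libraries, with no call at any time point. In the whole hearts it had 202 and 143 counts in thraa-/- and 99 and 80.5 in WT (0.95 ± 0.22 on the log2 scale, SE), a call that was lost without thraa-/- replicate 1 (0.72). An insertion need not change the level of the transcript, so these values do not check the labels. Cardiomyocyte markers, summed over 10 identifiers, were between 35314 and 104059 TPM (transcript abundance scaled for gene length and library size) in every time-course library, so the tissue carried its defining genes. After scaling with TMM, the median log2 change of all genes was at most 0.22 in any comparison with uninjured tissue. Scaling by total counts alone moved that median to between 0.45 and 1.06, so most genes then counted as higher after injury.

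RNA of the hbae1 genes was scarce in uninjured hearts and at 8 hpi and 1 dpi, and reached its highest level at 3 dpi in both genotypes. hbae1.2 had 286 and 237 expected counts in thraa+/- injured zones at 3 dpi, against 0 and 6.82 in uninjured thraa+/- apex tissue. In WT it had 3386 and 2782 counts at 3 dpi, against 31.8 and 25.6 in uninjured tissue. hbae1.3 had 416 and 461 counts in thraa+/- at 3 dpi against 34 and 32.2 without injury, and in WT 2220 and 2345 against 4.18 and 12.4. No library at 3 dpi overlapped with an uninjured library of its genotype.

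The split of reads between these near-identical genes was not stable, so they were also read together. RSEM, which assigns each read in fractions where it fits several genes, gave hbae1.2 no count in one uninjured thraa+/- library in which hbae1.3 had 34. The sum of hbae1.1, hbae1.2 and hbae1.3 was a whole number, within 0.015, in 28 of 28 libraries, although the single values were not whole in 24 of them. So the fractions fell within these 3 identifiers. hbae1.1, another embryonic α-globin of the group, had at most 12.9 counts in any library. The summed count was added as a feature after the data were seen, and it is given below beside the single genes.

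**Figure D1:**
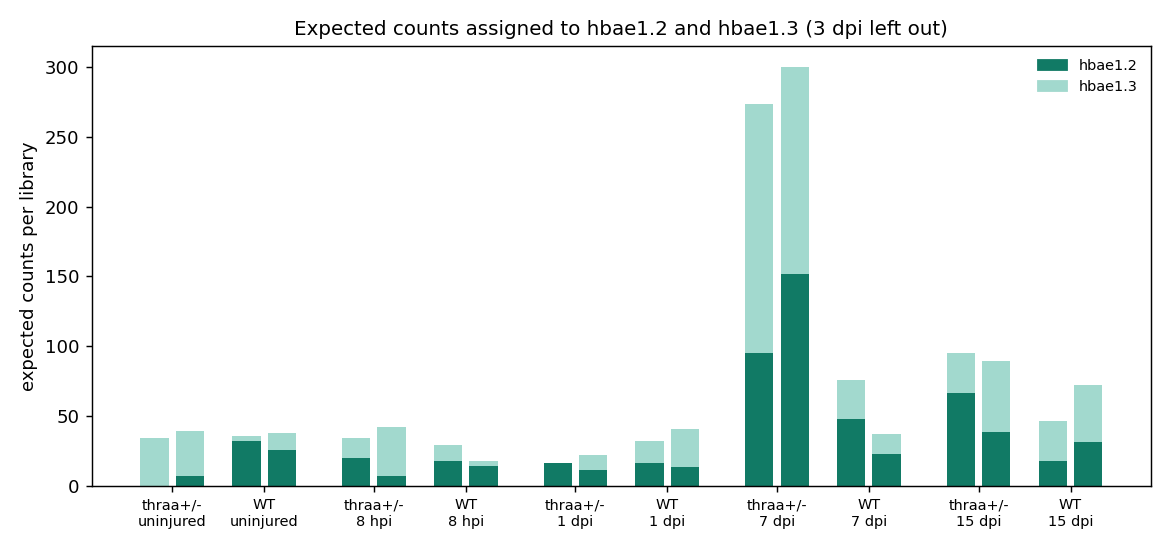
Expected counts of hbae1.2 (dark) and hbae1.3 (light) stacked in a bar for each library, on a linear axis that starts at 0, for the time-course libraries except those of 3 dpi, with thraa+/- left of WT at each time. The bars of uninjured tissue are of like height, while the dark part was 0 and 6.82 counts in thraa+/- and 31.8 and 25.6 in WT.

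In thraa+/-, the summed hbae1 count was 34 and 39 without injury, 34 and 42 at 8 hpi, 18 and 22 on day 1, 702 and 698 on day 3, 277 and 300 on day 7, and 101 and 102 on day 15. In WT it was 36 and 40 without injury, 29 and 18 at 8 hpi, 32 and 41 on day 1, 5614 and 5136 on day 3, 76 and 37 on day 7, and 48 and 76 on day 15. The peak at 3 dpi was thus higher in WT, whereas the libraries of 7 and 15 dpi were higher in thraa+/-, without overlap at any of these 3 times. Without injury the genotypes overlapped. At 8 hpi both thraa+/- libraries were above both WT libraries and at 1 dpi below them, with lows at 1 dpi in thraa+/- and at 8 hpi in WT.

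HBE1 ENSDARG00000113599 also had its highest counts at 3 dpi. It had 4 and 3 counts in uninjured thraa+/- tissue and 2.9 and 5 in uninjured WT tissue. At 8 hpi it had 1 and 2 counts in thraa+/- and 4 and 1 in WT, and at 1 dpi 3 and 11 against 8.55 and 9.57. At 3 dpi it had 58.2 and 50.8 counts in thraa+/- and 864 and 829 in WT. At 7 dpi the counts were 18 and 21.4 in thraa+/- against 4 and 11 in WT, and at 15 dpi 26 and 17.5 against 6.4 and 7.5, so that thraa+/- libraries were above WT libraries at both times. The name table gives this identifier the symbol of a human embryonic β-type globin, which does not say which zebrafish gene it is. It shared reads with the HBE1 identifiers ENSDARG00000087390 and ENSDARG00000115405. Their sum with it was whole in 28 of 28 libraries, although the single values were not whole in 11 of them. That sum was 90 and 100 counts in thraa+/- and 2010 and 1964 in WT at 3 dpi, 20 and 30 against 10 and 12 at 7 dpi, and 72 and 43 against 17 and 25 at 15 dpi. Unlike the hbae1 sum, it was thus higher at 15 than at 7 dpi in thraa+/-.

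**Figure D2:**
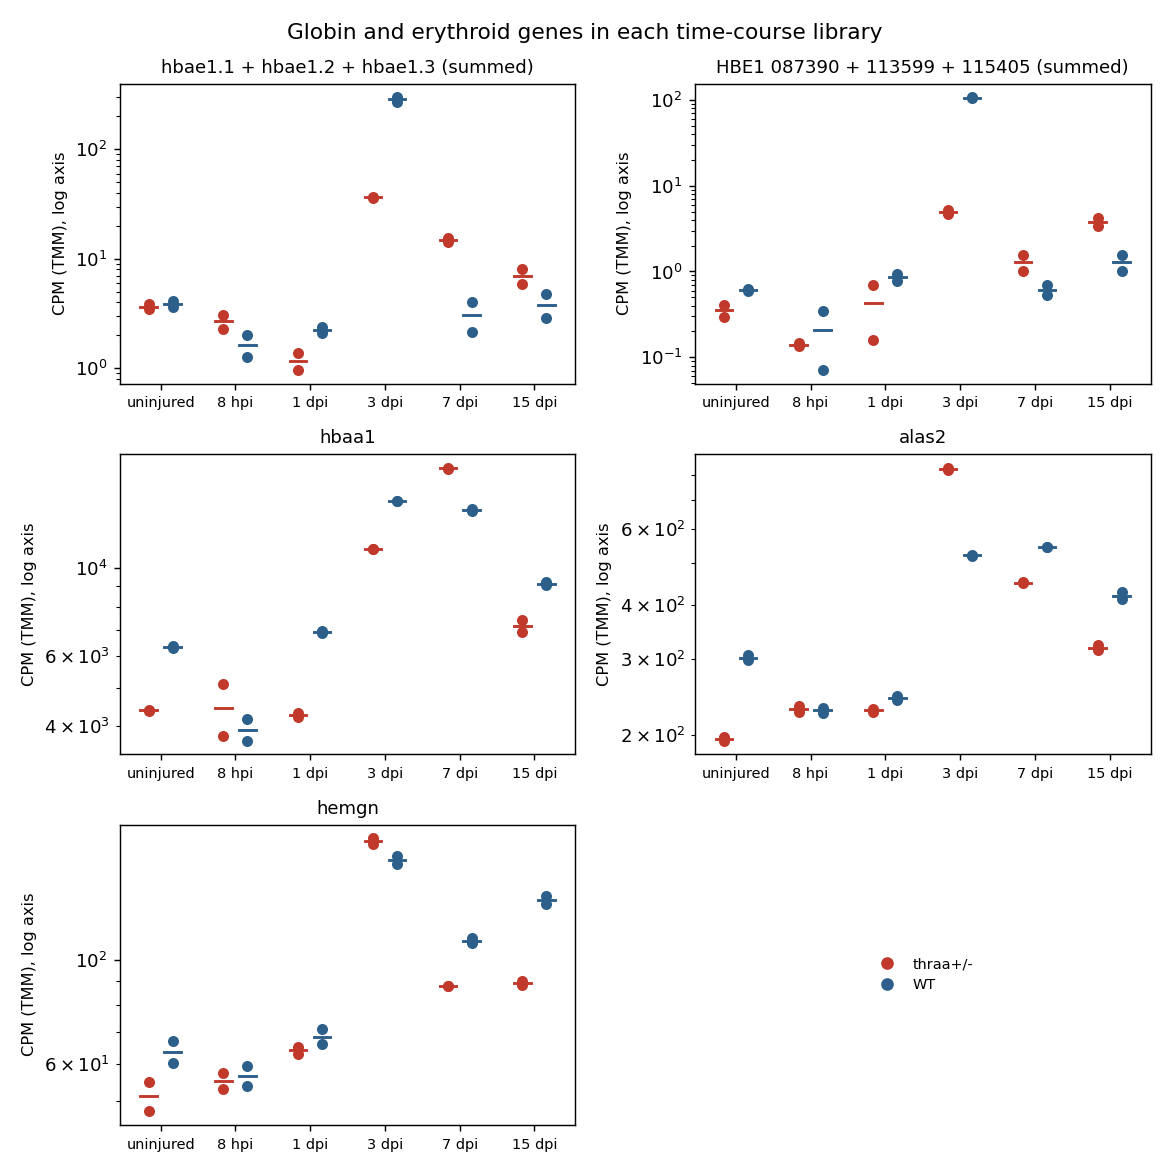
CPM after TMM scaling, on log axes, of the summed hbae1 genes, the sum of the 3 HBE1 identifiers, hbaa1, alas2 and hemgn in the 24 time-course libraries, with a point for each library, a line at the mean of its group, and thraa+/- left of WT. The hbae1 sum lies at 36.2 and 36.7 CPM in thraa+/- and at 299 and 274 CPM in WT at 3 dpi, while the hbaa1, alas2 and hemgn panels span a much narrower range.

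The adult α-globin hbaa1 was abundant in every library. In CPM, that is counts scaled to library size with TMM factors, it was 4368 and 4403 in uninjured thraa+/- tissue, 3784 and 5108 at 8 hpi, 4215 and 4312 on day 1, 11201 and 11176 on day 3, 17801 and 17924 on day 7, and 7391 and 6899 on day 15. In WT it was 6385 and 6305 CPM without injury, 3678 and 4164 at 8 hpi, 6863 and 6967 on day 1, 14756 and 14817 on day 3, 14094 and 13969 on day 7, and 9214 and 9074 on day 15. The adult gene thus peaked at 7 dpi in thraa+/-, and was at nearly the same level at 3 and 7 dpi in WT. At 7 dpi thraa+/- libraries were above WT libraries, while without injury and at 1, 3 and 15 dpi they were below them. The expected counts of hbaa1 and of hemgn were not whole in 28 of 28 libraries, so both shared some reads with identifiers that were not traced here.

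alas2 had 824 and 833 CPM in thraa+/- at 3 dpi, against 194 and 198 without injury. In WT it had 520 and 523 CPM at 3 dpi, against 306 and 299 without injury. Uninjured thraa+/- tissue was therefore below WT and the injured zone at 3 dpi above it, with both pairs apart. At the other times alas2 was 227 and 234 CPM in thraa+/- against 225 and 232 in WT at 8 hpi, 231 and 226 against 247 and 242 on day 1, 449.7 and 452 against 547 and 545 on day 7, and 324 and 314 against 429 and 413 on day 15. hemgn reached 182 and 176 CPM in thraa+/- and 167 and 159.8 in WT at 3 dpi, against 47.5 and 54.9 in uninjured thraa+/- tissue and 67.0 and 60.1 in uninjured WT tissue. At 15 dpi hemgn was at 88.4 and 90.2 CPM in thraa+/- and at 131 and 136 in WT, which did not overlap.

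Each time after resection was then compared with uninjured tissue of the same genotype, with edgeR's quasi-likelihood test, Benjamini-Hochberg adjustment over 17837 genes, and a call at an adjusted p under 0.05 with a log2 change of 1 or more in size. In thraa+/- all 6 genes were called higher at 3 dpi, where 19.2% of all genes were. hbae1.2 rose by 5.24 ± 0.52, hbae1.3 by 2.78 ± 0.40 and HBE1 ENSDARG00000113599 by 2.98 ± 0.48. alas2 rose by 2.08 ± 0.06, hemgn by 1.80 ± 0.08 and hbaa1 by 1.35 ± 0.08. The summed hbae1 count rose 9.93-fold (3.31 ± 0.19), and by 3.27 to 3.43 on the log2 scale with each library left out. The sum of the 3 HBE1 identifiers rose 13.8-fold (3.79 ± 0.40).

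At 7 dpi 5 of the 6 genes were still called higher in thraa+/-, beside 22.4% of all genes. hbaa1 rose by 2.03 ± 0.08, the largest of its 10 changes with injury, and alas2 by 1.2 ± 0.06. The summed hbae1 count rose 4.05-fold (2.02 ± 0.21), and HBE1 ENSDARG00000113599 rose by 1.49 ± 0.57. hemgn differed by 0.78 ± 0.08, under the fold threshold. The call of HBE1 ENSDARG00000113599 was lost without thraa+/- uninjured replicate 1 (1.74) or 2 (1.3) or thraa+/- 7 dpi replicate 2 (1.37), and that of hbae1.3 (1.34 ± 0.44) without thraa+/- uninjured replicate 1 (1.41) or 2 (1.29) or thraa+/- 7 dpi replicate 1 (1.21). The sum of the 3 HBE1 identifiers was called at 7 dpi with each library left out (1.52 to 2.13).

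At 15 dpi 2 of the 6 genes were called higher in thraa+/-, hbae1.2 (3.31 ± 0.68) and HBE1 ENSDARG00000113599 (2.05 ± 0.55), beside 7.88% of all genes. The hbae1.2 call rested on its 0 and 6.82 uninjured counts, and the summed hbae1 count differed by 0.91 ± 0.25, under the fold threshold. Without thraa+/- 15 dpi replicate 1 or thraa+/- uninjured replicate 2 the sum passed it (1.14 and 1.03). At 1 dpi hbae1.3 was called lower (-3.35 ± 0.81, 1 gene of 6 beside 13.8% of all genes), and so was the sum (-1.66 ± 0.34). At 8 hpi 0 of the 6 genes were called, where 30.5% of all genes were called either way. One of the 6 had an unadjusted p under 0.05 there, and DESeq2 called 0.

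In WT, 5 of the 6 genes were called higher at 3 dpi, where 20.8% of all genes were called higher. hbae1.2 rose by 5.79 ± 0.29 on the log2 scale (SE), hbae1.3 by 7.20 ± 0.46 and HBE1 ENSDARG00000113599 by 6.76 ± 0.35. The adult gene hbaa1 rose by 1.22 ± 0.08 and hemgn by 1.36 ± 0.07. alas2 differed by 0.79 ± 0.06, which was under the fold threshold with TMM scaling. Total counts alone shifted the median gene after injury in WT upward by 0.51 to 0.85, so values near the threshold depend on the scaling. The summed hbae1 count rose 73.7-fold (6.20 ± 0.17, adjusted p = 5.3e-24) and by 6.06 to 6.28 on the log2 scale when any one of the 4 libraries was left out. The sum of the 3 HBE1 identifiers rose 171-fold (7.42 ± 0.26).

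At the other times few of these genes were called in WT with TMM scaling. At 7 dpi only hbaa1 was called higher (1.15 ± 0.08), beside 24.2% of all genes, and at 15 dpi only hemgn (1.07 ± 0.07), beside 11.3%. The summed hbae1 count was near its uninjured level by 7 dpi, where it differed by -0.31 ± 0.27. At 8 hpi hbae1.2 was called lower (-1.39 ± 0.53) beside 12.5% of all genes, and at 1 dpi it was called lower (-1.72 ± 0.54) beside 10.8%. The call at 8 hpi was lost when any 1 of the 4 libraries was left out (-1.57 to -1.23), and the call at 1 dpi without WT uninjured replicate 1 (-1.59) or WT 1 dpi replicate 2 (-1.49). Of the summed count, the decrease at 8 hpi passed (-1.23 ± 0.32, but -0.93 and no call without WT 8 hpi replicate 2) and that at 1 dpi did not (-0.79 ± 0.29).

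The genotypes were compared at each time in the same fit. At 3 dpi 3 of the 6 genes were called lower in thraa+/- than in WT, beside 3.34% of all genes called lower, and none was called higher. hbae1.2 fell by 3.59 ± 0.22 on the log2 scale, hbae1.3 by 2.41 ± 0.27 and HBE1 ENSDARG00000113599 by 3.99 ± 0.24. The summed hbae1 count was 7.86-fold lower in thraa+/- (-2.98 ± 0.12, adjusted p = 2.2e-18), and the sum of the 3 HBE1 identifiers 21.4-fold lower (-4.42 ± 0.17). With each library left out these values were -3.04 to -2.91 and -4.51 to -4.33. The adult gene hbaa1 differed by only -0.40 ± 0.08, hemgn by 0.13 ± 0.07 and alas2 by 0.67 ± 0.06, none of them past the fold threshold. In bulk tissue a smaller number of cells of a type and less RNA in each cell cannot be told apart.

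At 7 dpi the order of the genotypes was turned round. The same 3 of the 6 genes were called higher in thraa+/-, beside 2.94% of all genes called higher. hbae1.2 rose by 1.72 ± 0.34, hbae1.3 by 2.81 ± 0.47 and HBE1 ENSDARG00000113599 by 1.25 ± 0.46, relative to WT. The summed hbae1 count was 4.76-fold higher in thraa+/- (2.25 ± 0.19, adjusted p = 8.6e-11), and stayed between 1.89 and 2.78 with each library left out. The call of HBE1 ENSDARG00000113599 was less stable. It was lost with DESeq2 (1.24) and without thraa+/- 7 dpi replicate 1 (1.38) or 2 (1.13) or WT 7 dpi replicate 1 (0.64), and the sum of the 3 HBE1 identifiers (1.07 ± 0.38) was called in only 1 of 4 fits with a library left out. hbaa1 differed by 0.35 ± 0.08, alas2 by -0.28 ± 0.06 and hemgn by -0.32 ± 0.07.

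At 15 dpi hbae1.2 (1.28 ± 0.43) and HBE1 ENSDARG00000113599 (1.78 ± 0.46) were called higher in thraa+/-, beside 4.12% of all genes. The sum of the 3 HBE1 identifiers was 3.01-fold higher (1.59 ± 0.28) and was called with each library left out (1.31 to 1.92). The hbae1 sum was 1.82-fold higher (0.87 ± 0.22), under the fold threshold, and ran from 0.54 to 1.27 with each library left out, passing without WT 15 dpi replicate 2 (1.27) or thraa+/- 15 dpi replicate 1 (1.09). The call of hbae1.2 was lost without thraa+/- 15 dpi replicate 1 (1.07) or 2 (1.43) or WT 15 dpi replicate 1 (0.88). hbaa1, alas2 and hemgn differed by -0.36 ± 0.08, -0.40 ± 0.06 and -0.59 ± 0.07.

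Before injury hbae1.2 was called lower in thraa+/- (-3.05 ± 0.75, 1 gene of 6 beside 5.79% of all genes called lower) while the hbae1 sum, which does not depend on the split of reads, differed by -0.08 ± 0.29 and was not called. alas2 differed by -0.62 ± 0.06, hbaa1 by -0.53 ± 0.08 and hemgn by -0.31 ± 0.08, all below WT and under the fold threshold. At 1 dpi hbaa1 differed by -0.70 ± 0.08. At 8 hpi and at 1 dpi 0 of the 6 genes were called, where 10.5% and 7.59% of all genes were called either way. One gene had an unadjusted p under 0.05 at 8 hpi and 2 at 1 dpi, and DESeq2 called 0 at both. Averaged over the 6 time points 0 of the 6 genes were called, beside 5.76% of all genes. The averages ran from -0.68 ± 0.23 for hbae1.2 to 0.40 ± 0.30 for hbae1.3, 4 genes had an unadjusted p under 0.05 and DESeq2 called 0. The average of the hbae1 sum was -0.03 ± 0.11, its differences at 3 and 7 dpi having opposite signs.

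**Figure D3:**
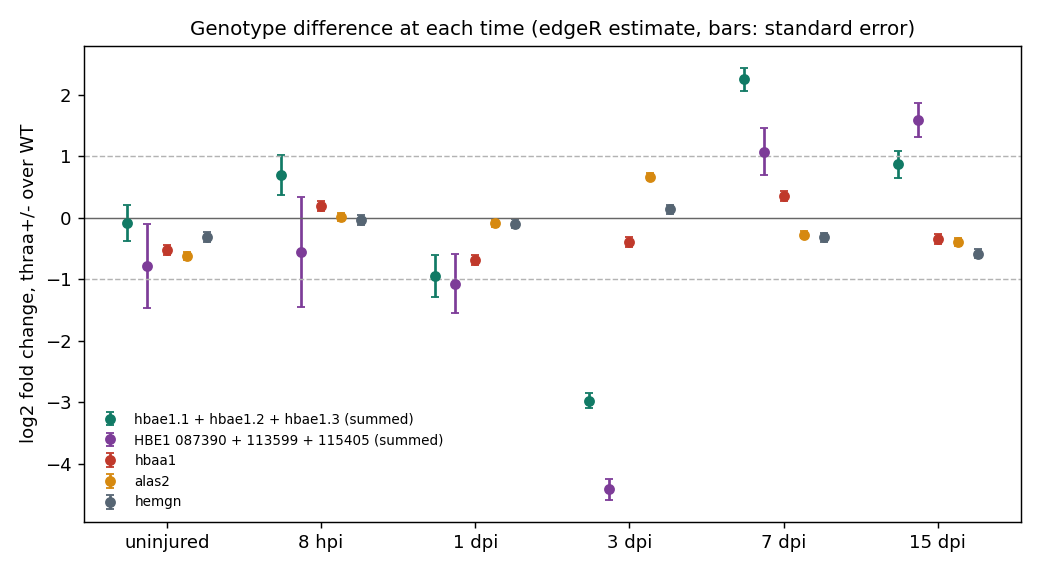
Difference between thraa+/- and WT (log2 fold change, positive where thraa+/- was higher) at each of the 6 time points, for the summed hbae1 genes, the sum of the 3 HBE1 identifiers, hbaa1, alas2 and hemgn, with bars of 1 SE and dashed lines at the fold threshold of ±1. The hbae1 sum lies at -2.98 at 3 dpi and at 2.25 at 7 dpi, while hbaa1, alas2 and hemgn stay between the dashed lines at every time.

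Whether the response to injury itself differed was tested with the interaction of genotype and injury, that is, the change from uninjured tissue in thraa+/- minus that in WT. At 3 dpi 3 of the 6 genes were called, beside 8.74% of all genes. hbae1.3 (-4.42 ± 0.79) and HBE1 ENSDARG00000113599 (-3.78 ± 0.91) had a smaller response in thraa+/-, and alas2 a larger one (1.29 ± 0.09). The response of the hbae1 sum was smaller in thraa+/- at 3 dpi (-2.89 ± 0.33, adjusted p = 5.4e-08) and larger at 7 dpi (2.33 ± 0.36, adjusted p = 6.3e-06), and both calls held with each of the 8 libraries left out (-2.95 to -2.71 and 1.98 to 2.87). For hbae1.2 alone the interaction at 3 dpi was -0.55 ± 1.06, with uninjured thraa+/- counts of 0 and 6.82. The call of HBE1 ENSDARG00000113599 was lost without thraa+/- uninjured replicate 1 (-3.47). The sum of the 3 HBE1 identifiers was called as well (-3.63 ± 0.85), and its call was lost without the same library (-3.32).

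The alas2 interaction combined a level below WT without injury and one above WT at 3 dpi, neither of which was called by itself. At 7 dpi its interaction was 0.35 ± 0.09, and at 15 dpi 0.22 ± 0.09, neither called. For hbaa1 the interaction was largest at 7 dpi (0.88 ± 0.11), and for hemgn at 3 dpi (0.44 ± 0.11), both under the fold threshold. Of the remaining calls, hbae1.2 was called at 7 dpi (4.76 ± 0.80, 1 gene of 6 beside 12.7% of all genes) and at 15 dpi (4.33 ± 0.86, beside 9.23%), and hbae1.3 at 1 dpi (-4.07 ± 1.19, beside 10.9%). At 1 and 15 dpi the hbae1 sum was not called (-0.87 ± 0.45 and 0.95 ± 0.37), and the hbae1.3 call was also lost without thraa+/- uninjured replicate 1 (-3.94) or 2 (-4.06), WT uninjured replicate 1 (-3.39) or WT 1 dpi replicate 2 (-3.70). Without WT 15 dpi replicate 2 or thraa+/- 15 dpi replicate 1 the hbae1 sum was called at 15 dpi (1.35 and 1.17). The sum of the 3 HBE1 identifiers was called at 15 dpi (2.38 ± 0.75), but its call did not hold with each library left out (2.10 to 2.71). At 8 hpi 0 of the 6 were called, beside 14.1% of all genes, with 4 at an unadjusted p under 0.05 and 1 called by DESeq2.

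The embryonic and adult α-globins could be set against each other within a library on the TPM scale, which needs no scaling between libraries. hbae1.2 and hbae1.3 together amounted to 4.25 and 4.31 per 1000 hbaa1 transcripts in thraa+/- at 3 dpi, against 27.0 and 24.3 in WT. At 7 dpi the ratio was 1.08 and 1.19 in thraa+/- and 0.390 and 0.212 in WT. At 15 dpi it was 1.05 and 1.36 in thraa+/- and 0.407 and 0.676 in WT. The 2 genotypes did not overlap at these 3 times. Even at its highest the embryonic pair was a small part of α-globin RNA, and in TPM it reached 1003 and 922 in WT at 3 dpi, against 37136 and 37940 for hbaa1 in the same libraries.

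Without injury the ratio was 1.03 and 1.14 in thraa+/- and 0.742 and 0.834 in WT, at 8 hpi 0.809 and 0.794 against 0.734 and 0.410, and at 1 dpi 0.278 and 0.426 against 0.408 and 0.455. Without injury and at 8 hpi the thraa+/- libraries were above the WT libraries, on 18 to 42 counts of the embryonic pair per library, and at 1 dpi the groups overlapped. alas2 amounted to 1.32% and 1.34% of hbaa1 (in TPM) in thraa+/- and 0.620% and 0.636% in WT at 3 dpi. At 7 dpi it amounted to 0.411% and 0.410% against 0.635% and 0.639%. The order of the genotypes thus turned for this ratio too, but in the opposite sense to the embryonic ratio. These ratios are descriptions and were given no test. Reads that hbaa1 shared with untraced identifiers can shift them.

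**Figure D4:**
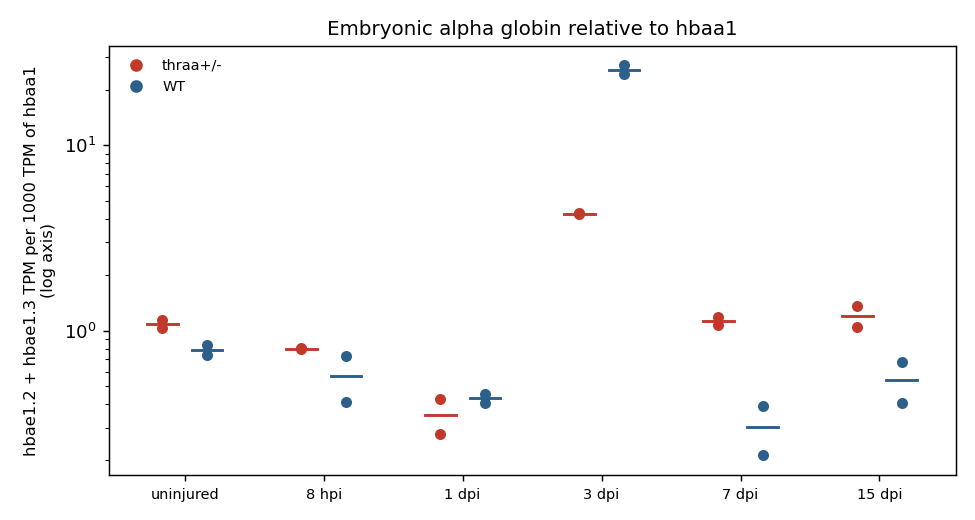
hbae1.2 and hbae1.3 TPM together, per 1000 TPM of hbaa1, on a log axis, in the 24 time-course libraries, with a point for each library, a line at the group mean and thraa+/- left of WT. The WT libraries of 3 dpi, at 27.0 and 24.3, are the highest, and thraa+/- lies above WT at 7 and 15 dpi.

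Together the 4 globins among the 6 genes held between 0.297% and 2.29% of all counts in a time-course library. That share was 1.32% and 1.3% in thraa+/- and 1.82% and 1.84% in WT at 3 dpi, and 2.29% and 2.28% against 1.75% and 1.74% at 7 dpi. Nearly all of it was hbaa1. With the other 12 globin identifiers of the annotation, globins took 10.2% and 10.1% of all TPM in thraa+/- and 9.92% and 10.0% in WT at 3 dpi, so the total was close between the genotypes at the time when the hbae1 genes differed most. Its parts were not close. The sum of HBE1 ENSDARG00000089087 and ENSDARG00000097238 was 27703 and 28370 CPM in thraa+/- and 19360 and 19172 in WT, whereas hbaa1 was lower in thraa+/-. Without injury the total was 1.76% and 1.76% in thraa+/- and 2.33% and 2.43% in WT. Computing library sizes without the globins changed no call of the 6 genes.

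The related globins outside the 6 showed which neighbours moved with them. The other 2 HBE1 identifiers that shared reads with ENSDARG00000113599 were nearly absent without injury (0 to 3.1 counts). At 3 dpi HBE1 ENSDARG00000087390 had 27.6 and 33.0 counts in thraa+/- and 597 and 644 in WT, and ENSDARG00000115405 had 4.13 and 16.2 against 549 and 491. By contrast hbae3 and hbbe3, also named as embryonic globins, had 0 counts in all 4 libraries at 3 dpi, which allows up to 3 counts per library. Both also had counts in WT 8 hpi replicate 1. At 15 dpi all 4 libraries held them, hbae3 with 27 and 45 counts in thraa+/- and 8 and 7 in WT (2.46 ± 0.84). For hbbe3 the counts were 21 and 20 against 5 and 3 (2.49 ± 0.92). Their passing of the filter on low counts can rest on the thraa+/- libraries of 15 dpi, where they were high. These calls are therefore no independent test of a difference. Both calls were lost with DESeq2 (2.48 and 2.52), that of hbae3 without thraa+/- 15 dpi replicate 2 (1.79) or WT 15 dpi replicate 1 (2.53) or 2 (2.40), and that of hbbe3 without any one of the 4 libraries (2.21 to 2.86). hbae5, a further embryonic α-globin, had 84 and 116 counts in thraa+/- and 272 and 281 in WT at 3 dpi (-1.5 ± 0.22), and 36 or more counts in every library from 1 to 7 dpi, against 3 and 1 in uninjured thraa+/- tissue and 4 and 6 in uninjured WT tissue. hbae5 was called higher than without injury at 7 dpi, by 4.24 ± 0.50 in thraa+/- and 4.06 ± 0.37 in WT, and still at 15 dpi, by 2.59 ± 0.62 and 2.31 ± 0.44. At 7 dpi hbae5 was lower in thraa+/- than in WT (-1.13 ± 0.23), where the hbae1 sum was higher, though without thraa+/- 7 dpi replicate 2 it was not called (-0.92). hbae4, also named as an embryonic α-globin, did not rise with them in WT. It differed from uninjured WT tissue by 0.12 ± 0.12 at 3 dpi and -0.37 ± 0.12 at 7 dpi, neither called. The sum of HBE1 ENSDARG00000089087 and ENSDARG00000097238, which shared reads, rose by 1.91 ± 0.11 in thraa+/- and 1.22 ± 0.11 in WT at 3 dpi. At 7 dpi it rose by 1.89 ± 0.11 and 1.84 ± 0.11, all called. Unlike the hbae1 sum, it was higher in thraa+/- than in WT at 3 dpi (0.54 ± 0.11), under the fold threshold. HBE1 ENSDARG00000045143 rose in WT by 2.53 ± 0.48 at 3 dpi and 2.58 ± 0.47 at 7 dpi.

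The second adult α-globin, hbaa2, differed between the genotypes far more than hbaa1. It amounted to 0.805% and 0.751% of hbaa1 (in TPM) in uninjured thraa+/- tissue, against 7.30% and 7.14% in WT. At 3 dpi the share was 11.4% and 11.9% in thraa+/- and 14.8% and 14.7% in WT, and at 7 dpi 0.456% and 0.502% against 4.70% and 4.57%. So hbaa2 was below WT at each of the 6 times, and closest to it at 3 dpi. In the fit its difference was -3.75 ± 0.09 without injury, -0.73 ± 0.08 at 3 dpi and -2.93 ± 0.08 at 7 dpi, and its response at 3 dpi was larger in thraa+/- (interaction 3.02 ± 0.12). HBE1 ENSDARG00000069734 had nearly the same differences (-3.88 ± 0.09, -0.92 ± 0.08 and -2.54 ± 0.08). Reads of hbaa2 and of this identifier were whole counts in 28 of 28 libraries, so they were not divided in fractions. Those of hbaa1 were so divided.

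**Figure D5:**
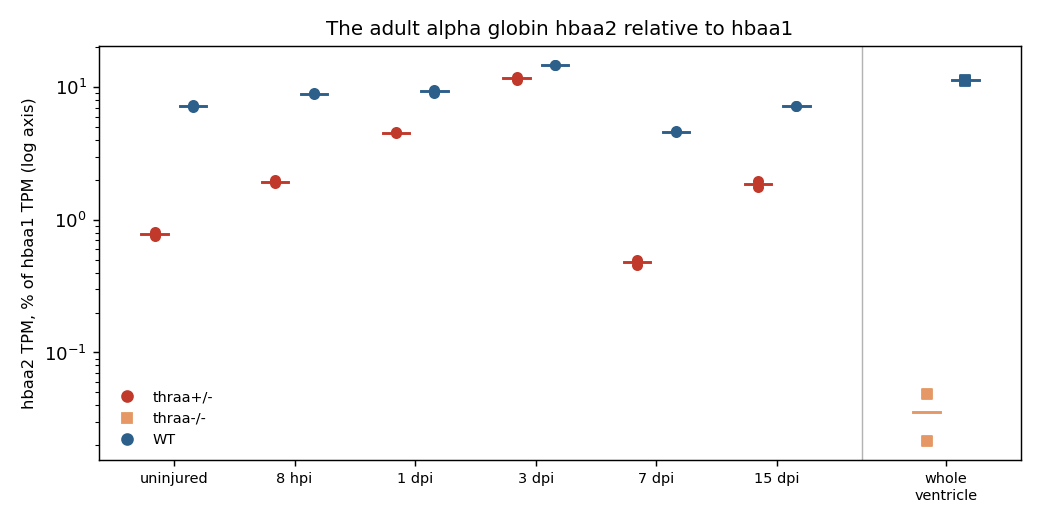
hbaa2 as a percent of hbaa1, both in TPM, on a log axis, with a point for each library, a line at the group mean and the mutant left of WT at each time and in the whole hearts. WT libraries lie between 4.57% and 14.8%, and the mutant libraries below them at every time, down to 0.022% and 0.049% in thraa-/- hearts.

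Genes of the red cell other than globins were set beside the globins. Whether they follow the amount of blood RNA was not tested. These genes came from lists of known markers. The list of the red cell membrane also holds carbonic anhydrases. Of its 13 tested genes, 5 were called higher and 0 lower in thraa+/- at 3 dpi, beside 19.2% of all genes called higher and 12.7% lower. In WT 4 were called higher and 1 lower, beside 20.8% and 14.4%. The WT counts are not far from those shares. The median log2 change of the list was 0.86 in thraa+/- and 0.44 in WT, beside 0.10 and 0.18 for all genes. The summed TPM of the list was 883 to 910 in thraa+/- and 740 to 767 in WT at 3 dpi, against 220 to 228 in uninjured thraa+/- and 302 to 309 in uninjured WT tissue. In the comparison of genotypes at 3 dpi, 1 of 13 was called higher and 1 lower, beside 5.23% and 3.34% of all genes, with a median log2 difference of 0.31 beside -0.01 for all genes. cahz, a carbonic anhydrase of red cells, rose by 1.48 ± 0.07 and SLC4A1 ENSDARG00000012881, the anion exchanger of the red cell membrane, by 1.26 ± 0.06 in WT at 3 dpi.

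Of 14 tested genes of heme synthesis and transport, 2 were called higher and 4 lower in thraa+/- at 3 dpi, and 2 and 2 in WT. The median log2 change of this list was -0.08 in thraa+/- and 0.19 in WT, and apart from the 4 lower calls its counts lie near the shares of all genes just given. UROD, an enzyme of heme synthesis, rose by 1.70 ± 0.26 in WT and ABCB10, a mitochondrial transporter, fell by 1.92 ± 0.10. Of 14 tested regulators of red cell formation, 4 were called higher and 2 lower in thraa+/- at 3 dpi, and 1 and 1 in WT, which is below the shares of all genes, with medians of 0.56 and 0.30. In WT the pair called at 3 dpi was MYB, a factor of blood progenitors, which rose by 2.64 ± 0.59, and epoa, an erythropoietin gene, which fell by 2.38 ± 0.07. EPOR, the erythropoietin receptor, rose by 2.50 ± 0.36 in WT at 7 dpi.

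Markers of other cells moved with injury as well. All 9 tested leukocyte markers were called higher at 3 dpi in both genotypes, beside 19.2% of all genes in thraa+/- and 20.8% in WT. Their median difference between the genotypes was -0.38 on the log2 scale. Their summed TPM was 528 to 532 in thraa+/- and 681 to 685 in WT at 3 dpi, and 27.6 to 28.1 against 63.5 to 68.2 without injury. Of 9 cardiomyocyte markers 7 were called lower in thraa+/- and 8 in WT at 3 dpi, beside 12.7% and 14.4% of all genes. Their summed TPM was 42595 to 43492 in thraa+/- and 35314 to 35321 in WT. The part of these shifts in the globin values was not tested.

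In the uninjured whole hearts 2 of the 4 tested genes were called higher in thraa-/-, at a threshold of 1.5-fold, beside 9.66% of 15793 genes called higher. alas2 had 15921 and 13685 counts in thraa-/- and 7851 and 6866 in WT, a rise of 1.02 ± 0.11 (adjusted p = 3.0e-04). hemgn had 2372 and 2205 counts in thraa-/- and 1551 and 1256 in WT, a rise of 0.71 ± 0.12 (adjusted p = 0.0040). Both genes were higher in each thraa-/- library than in each WT library. The call of hemgn was lost without thraa-/- replicate 1 (0.69) or 2 (0.75) or WT replicate 2 (0.57), and with scaling by total counts (0.46).

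hbaa1 had 153455 and 157362 counts in thraa-/- hearts and 67023 and 110617 in WT hearts, which did not overlap. The difference of 0.82 ± 0.29 was not called (adjusted p = 0.15), but it passed with DESeq2 and, at 1.22, without WT replicate 2. The hbae1 genes and HBE1 ENSDARG00000113599 were at the edge of detection. hbae1.2 had 0 and 0 counts in thraa-/- and 5 and 2.47 in WT, hbae1.3 11 and 12 against 0 and 16.5, and HBE1 ENSDARG00000113599 1 and 2 against 4 and 0. The hbae1 sum differed by -0.05 ± 0.66, an error too large to show a difference at this depth. Per 1000 hbaa1 transcripts hbae1.2 and hbae1.3 were at 0.094 and 0.101 in thraa-/- and 0.101 and 0.228 in WT.

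Lists of other red cell genes did not all move the same way in the same libraries. Of 13 tested genes of the membrane list 7 were called higher and 0 lower in thraa-/-, beside 9.66% of all genes called higher and 9.54% lower. They were led by the carbonic anhydrase cahz (1.66 ± 0.11) and RHAG, a channel of the red cell membrane (1.36 ± 0.13). Of 14 tested heme genes 5 were called higher and 2 lower, among them SLC25A37 (2.03 ± 0.26), the mitochondrial iron importer, which was higher, and FECH (-1.47 ± 0.24), the last enzyme of heme synthesis, which was lower. Of 7 tested genes of red cell metabolism 4 were called higher and 1 lower. BPGM, which makes the phosphate compound that lowers oxygen binding in mammalian red cells, was higher (1.64 ± 0.11) and alox12, a lipoxygenase, lower (-2.17 ± 0.41). In the time course BPGM was lower at 3 dpi than without injury, with log2 changes of -2.01 ± 0.09 in thraa+/- and -1.99 ± 0.09 in WT. The summed TPM of the membrane list was 1046 to 1109 in thraa-/- and 640 to 708 in WT. That of the heme list was lower in thraa-/- (425 to 444 against 616 to 624), although more of its genes were called higher than lower. A sum is weighted to the most abundant genes of a list. Regulators of red cell formation were also lower in sum (233 to 242 against 249 to 257). Among them stat5a was called lower (-1.12 ± 0.32), and klf1 (0.80 ± 0.15) and TAL1 (0.69 ± 0.12) higher. The 16 globin identifiers of the annotation together took 9.04% and 9.74% of TPM in thraa-/- and 5.31% and 5.45% in WT. Of 9 leukocyte markers 5 were called lower and 0 higher. The amount of blood left in the tissue was not measured, and its part in these values was not tested.

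hbaa2 went the other way in these hearts. It had 26 and 60 counts in thraa-/- and 5878 and 9722 in WT, a difference of -7.49 ± 0.62 (adjusted p = 0.011). The call was lost without WT replicate 1 (-7.81) or 2 (-7.08), where the remaining WT library stood alone, but the counts did not overlap. HBE1 ENSDARG00000069734 had 84 and 96 counts in thraa-/- and 14449 and 19440 in WT (-7.54 ± 0.21, adjusted p = 3.4e-06). The 2 other abundant HBE1 identifiers, ENSDARG00000089087 and ENSDARG00000097238, which shared reads with each other, rose together by 1.41 ± 0.10 in thraa-/-. So 2 of the abundant globin identifiers were nearly absent from thraa-/- hearts while hbaa1 was not lower. The pair that shared reads had 217033 and 177783 counts in WT hearts, more than hbaa1. Over the 24 time-course libraries HBE1 ENSDARG00000069734 followed hbaa2 closely (Pearson's r of 0.99). The symbol HBE1 does not tell whether these identifiers are embryonic or adult β-type genes, and hbba1 and hbba2 may be among them.

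Likeness between genes was measured as Pearson's r of log2 CPM (prior count 2) over the 24 time-course libraries, as a description over libraries that share groups and depth. Among the 6 genes alas2 and hemgn were most alike (r = 0.93), then hbae1.2 and HBE1 ENSDARG00000113599 (0.88) and hbae1.3 and the same identifier (0.87). The adult gene hbaa1 was closer to alas2 (0.85) and hemgn (0.78) than to hbae1.2 (0.68) or hbae1.3 (0.65). Of 13704 other genes with a symbol and a mean of at least 1 CPM, HBE1 ENSDARG00000087390 was the closest to hbae1.2 (0.90) and to HBE1 ENSDARG00000113599 (0.96), and also shared reads with the second. s100u (0.86) and hmgb2b (0.84) came next for hbae1.2. For hbae1.3 the closest was ska3 (0.86), followed by HBE1 ENSDARG00000087390 (0.84) and SPDL1 (0.83). Both ska3 and SPDL1 are known to act at the kinetochore in dividing cells. By Spearman's rank correlation over the same libraries, alas2 and hemgn were again most alike (0.92). By that measure hbae1.2 was closer to alas2 (0.79), hemgn (0.73) and hbaa1 (0.71) than to HBE1 ENSDARG00000113599 (0.70). Its rank correlations with s100u and hmgb2b were 0.61 and 0.59. Among the 6 genes hbae1.3 stayed closest to that HBE1 identifier (0.675), but its rank correlations with ska3 (0.76) and SPDL1 (0.74) were higher. Values of hbae1.2 and hbae1.3 also carry the unstable split of reads.

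alas2 was most like TMOD4 (0.96), SLC4A1 ENSDARG00000012881 (0.93) and cahz (0.90), the anion exchanger and the carbonic anhydrase named above being red cell genes, and hemgn was most like TMOD4 (0.91), zgc:56095 (0.91) and si:ch211-194k22.8 (0.90). hbaa1 was most like DKK3, lurap1 and si:dkey-56m19.5 (each 0.97).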

How the data were processed

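RNA was sequenced from 28 libraries, 24 of the time course and 4 of whole hearts. The deposited tables hold expected counts and TPM per gene, which the authors made with Trim Galore 0.6.10, STAR 2.7.9 and RSEM 1.3.3 on GRCz11, per the submitters' processing notes, which also name DESeq2 1.42.0 and HOMER 4.11. The annotation release is not given in the sources used here. Columns were matched to samples by name, and 0 columns were left unused. Gene symbols came from a name table, and hbba1 and hbba2 matched no identifier of it. RefSeq's GRCz12tu table, another build, gave only the order of neighbouring genes.

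Expected counts were rounded and tested with edgeR 4.0.16 in R 4.3.3, in one fit of the 12 time-course groups and one of the whole hearts. Both used filterByExpr, TMM, a robust quasi-likelihood fit and Benjamini-Hochberg adjustment over all genes tested. The filter kept 17837 and 15793 genes. Calls needed an adjusted p under 0.05 and a log2 change of 1 or more in size, or 1.5-fold in the whole hearts. Exact permutation of 2 against 2 libraries cannot reach 0.05, so no single value was tested that way. The test recovered 69% of 100 genes with a simulated log2 change of 1.5 in size and 77% of 100 with a change of 2 (WT, 3 dpi), and 86% and 85% in the whole hearts. RSEM assigns reads that fit several genes in fractions, so values of single near-identical globins are uncertain. Features that sum such identifiers were added after the data were seen.

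The members and gene lists were chosen with earlier results of these data known. All members were given in every comparison. From each list the text could name up to 3 called genes with the largest change in the averaged genotype contrast, in WT at 3 or 7 dpi or in the whole hearts, each gene of a list with 6 or fewer tested, thraa, and the 3 non-member genes most like each member. Alternatives were DESeq2, total-count scaling, library sizes without globins, other filters, fits of the compared groups only, a replicate block, adjusted p alone, and leaving out each library. A further alternative was log2 TPM with a pseudocount of 1 or 0.1, tested with limma 3.58.1.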

Additional observations from a re-analysis of the deposited data

Results flagged for a closer look

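The change with injury differed between thraa+/- and WT, by the test of the interaction (edgeR quasi-likelihood test), for 6 combinations of gene and time. hbae1.3 (-4.42) and HBE1 ENSDARG00000113599 (-3.78) responded less in thraa+/- at 3 dpi, and alas2 responded more (1.29). hbae1.2 responded more in thraa+/- at 7 dpi (4.76) and 15 dpi (4.33), and hbae1.3 less at 1 dpi (-4.07). The 2 values of hbae1.2 rest on 0 and 6.82 counts in uninjured thraa+/- tissue. For the summed hbae1 genes the interaction was -0.87 at 1 dpi, -2.89 at 3 dpi, 2.33 at 7 dpi and 0.95 at 15 dpi, of which those at 3 and 7 dpi passed the test. The sum of the 3 HBE1 identifiers passed at 3 dpi (-3.63) and 15 dpi (2.38), though neither call held with each library left out.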

How the results depend on the processing

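None of the 40 calls of the members changed direction under the alternatives that gave a value. Of these calls 2 were lost with DESeq2, 4 with total counts, 5 with log2(TPM + 1), 9 with log2(TPM + 0.1), 1 with no filter beyond 1 count, and 6 of 28 when identifiers that share reads were summed, while 0 were lost with library sizes free of globins. Requiring 10 counts in every library left 12 of the 40 to test. The number of calls was then 5 after injury in thraa+/- (14 otherwise), 5 in WT (9), 0 between the genotypes (9, and 3 with log2(TPM + 0.1)) and 1 for the interaction (6). With the adjusted p alone it was 21 after injury in thraa+/-, 17 in WT, 21 between the genotypes, 4 in their average (0 otherwise) and 12 for the interaction. In the whole hearts total counts, log2(TPM + 1) and log2(TPM + 0.1) each gave 1 call in place of 2. Leaving out one library gave 12 to 14 calls after injury in thraa+/-, 7 to 9 in WT, 7 to 10 between the genotypes, 0 to 1 in the average, 4 to 8 for the interaction and 1 to 3 in the whole hearts. Total counts shifted the median gene after injury by up to 0.895 on the log2 scale. Such a shift can also add calls after injury, which the numbers of lost calls do not show.

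With counts in place of TPM, hbae1.2 and hbae1.3 together per 1000 hbaa1 were 3.25 in thraa+/- and 19.3 in WT at 3 dpi. hbaa2 was 0.615% of hbaa1 in uninjured thraa+/- and 5.72% in uninjured WT tissue, and 8.78% in WT whole hearts. With TPM in place of counts, the 4 globins held 2.72% of a library in thraa+/- and 3.86% in WT at 3 dpi. The direction between genotypes was kept in these ratios.

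With the replicate number as a block, the numbers of calls were 14 after injury in thraa+/-, 9 in WT, 9 between the genotypes, 0 in their average, 6 for the interaction and 3 in the whole hearts, where hbaa1 was added. The samples share only a number: over 66 pairs of groups the deviations of same-numbered libraries correlated at -0.03 to 0.20. Depth limits the hbae1 genes and HBE1 ENSDARG00000113599 outside 3 dpi, where single counts decide their values. With 2 libraries a group, the spread that can be seen is limited too.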
